A study of Mus musculus with 6 samples.

Results

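The Zfp genes, named for the zinc finger motif, were taken as all genes whose symbol in the array annotation is Zfp followed by digits and at most 1 letter, with Zfp42 left out. The annotation held 226 such genes among 16908, and 223 of them had a promoter window that could be measured, among 16329 windows in all. The rule reads symbols only, but the members and rules were chosen with earlier results of these data known. Rybp occupancy was measured in mouse embryonic stem (ES) cells by chromatin immunoprecipitation and hybridisation to promoter arrays (ChIP-chip), with immunoprecipitated (IP) DNA in the Cy5 channel and input DNA in the Cy3 channel. The cells were wild type (WT), carried a constitutive knockout of Eed (Eed-KO) or were knocked out for Dnmt1 (Dnmt1-KO). Eed belongs to the core of Polycomb repressive complex 2, the methyltransferase of histone H3 lysine 27, and Dnmt1 copies DNA methylation at replication. Each genotype was hybridised once to each of 2 array designs that carry different promoters, so every promoter had 1 value per genotype and the 6 arrays gave no replicates. The labels name no clone, passage or strain and do not say which cultures had feeder cells.

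Most genes of this name encode C2H2 zinc finger proteins, which bind DNA through tandem fingers. Many of these also carry a KRAB domain, through which they recruit the corepressor Trim28 and with it the machinery that silences retroelements and imprinted loci in ES cells. KRAB zinc finger genes often lie in tandem clusters that arose by duplication. Rybp belongs to variant forms of Polycomb repressive complex 1, an assembly that places ubiquitin on histone H2A and sits largely at CpG-rich promoters. The name is historical: 26 of the 226 genes carry another symbol today, among them Zfp469, now Tnrc18, and Zfp289, now Arfgap2. Arfgap2 is a GTPase-activating protein, which stimulates GTP hydrolysis by ARF proteins at the Golgi. Zfp36 kept its name but encodes the CCCH-type RNA-binding protein tristetraprolin.

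The level of a promoter was the centred log2 ratio of IP over input, averaged over the 6 neighbouring probes with the highest mean across the 3 genotypes, and promoters with a level of 1 or more, which is 2-fold, were counted as bound. Binding was rare in WT and Eed-KO cells, at Zfp promoters as over all promoters. In WT cells 8 of 223 Zfp promoters were bound, or 3.59%, against 5.15% of all promoters. In Eed-KO cells 6 were bound, or 2.69%, against 5.76% of all promoters. In Dnmt1-KO cells 104 were bound, or 46.6%, against 46.1% of all promoters, which is near the background, and the count dropped to 27 (all promoters 2953 of 16329) once the arrays of a design were set to 1 spread. The median Zfp level was 0.28 in WT, 0.19 in Eed-KO and 0.93 in Dnmt1-KO, against 0.27, 0.21 and 0.92 over all promoters. The middle of the Zfp levels in WT was therefore close to that of all promoters, while the upper quartile was 0.46 against 0.52.

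The Dnmt1-KO arrays differed from the others in scale. Their log2 ratios had a standard deviation (SD) of 0.91 to 0.96, against 0.41 to 0.42 in WT and 0.45 to 0.47 in Eed-KO, and they were read with another scanner model and extraction version, so scan and genotype cannot be told apart. Their input signal was well above background at 85.8% to 88.1% of probes, against at least 99.9% on the other arrays, although the threshold for that call was also set higher in these files. For this reason each Dnmt1-KO difference below is followed by the value with the arrays set to 1 spread. No p-value was computed, and every SD or standard error (SE) is over the 6 probes of a window and holds nothing about variation between cultures. Input and IP DNA give no expression level, so neither the cell type nor the targeted genes could be checked.

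The 8 Zfp promoters bound in WT were those of Zfp503, Zfp623, Zfp593, Zfp319, Zfp469, Zfp770, Zfp438 and Zfp422. Their windows are given in the coordinates of the array annotation, for which no genome build is given in these sources. The probe with the highest WT level upstream of the annotated start is shown for 4 of them, to let the bound DNA be seen; capitals mark CG dinucleotides, and the letters are those of the deposited array files.
Zfp503 probe, chr14:20779226-20779283: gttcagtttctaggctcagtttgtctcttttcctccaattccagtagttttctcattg
Zfp623 probe, chr15:75768013-75768072: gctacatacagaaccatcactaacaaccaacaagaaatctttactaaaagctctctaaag
Zfp593 probe, chr4:133523120-133523164: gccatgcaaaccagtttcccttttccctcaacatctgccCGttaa
Zfp422 probe, chr6:116594763-116594815: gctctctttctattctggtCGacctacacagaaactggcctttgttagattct
These probes hold 0, 0, 1 and 1 CG, in the order printed, and lay 1101, 164, 5538 and 193 bp upstream of the annotated starts. Their WT levels were 2.17, 2.20, 1.98 and 1.46.

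**Figure D1:**
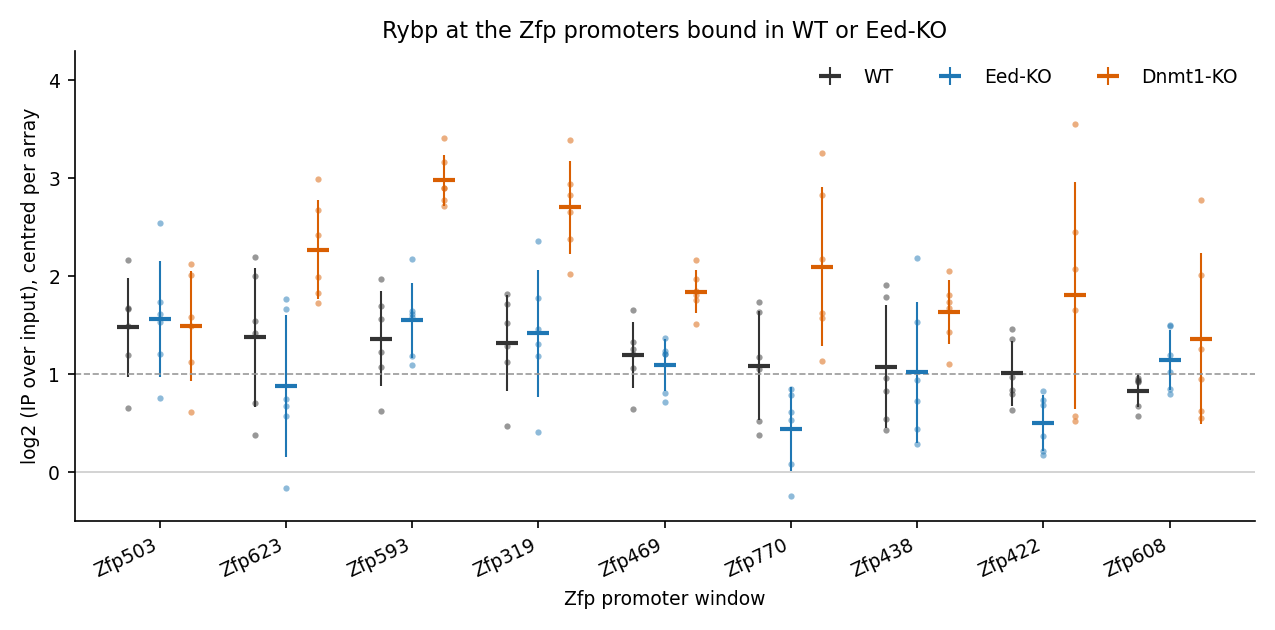
Centred log2 ratio of IP over input at the 9 Zfp promoters bound in WT or Eed-KO, ordered by WT level. Each point is 1 of 6 probes, the horizontal mark is their mean, the bar is the SD over probes and the dashed line is the bound level of 1; Zfp623, Zfp770 and Zfp422 lie lower in Eed-KO than in WT at all 6 probes.

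Zfp503 had the highest WT level of the family. The gene encodes a regulator of limb and striatal development that acts as a corepressor. Its window, chr14:20778379-20779283, lay upstream of the start, with a centre at -642 bp. The level was 1.48 ± 0.51 (SD over 6 probes) in WT, 1.56 in Eed-KO and 1.49 in Dnmt1-KO, so it was nearly equal on all 3 arrays as measured. Its Dnmt1-KO minus WT difference was 0.02 ± 0.16 (SE) as measured, -0.02 without the trend on probe GC content and -1.07 with 1 spread, the lowest of the family on that scale. Its window probes held 0.94 CpG per 100 bases, below the Zfp median of 2.82.

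Zfp623 came next, with 1.38 ± 0.71 in WT, 0.88 in Eed-KO and 2.27 in Dnmt1-KO, in a window across the start (chr15:75767864-75768881). Zfp438 lay at 1.08 ± 0.63, 1.02 and 1.64 in the same order, also at the start, and its window on chromosome 18 held 6.14 CpG per 100 bases. Zfp469 measured 1.19 ± 0.33, 1.09 and 1.84 at a window centred 1294 bp inside the gene (chr5:143080645-143081587). The windows of Zfp438 and Zfp469 thus showed similar levels in WT and Eed-KO. In all 3 the Dnmt1-KO level was the highest as measured, but the Dnmt1-KO minus WT difference turned from 0.90, 0.56 and 0.65 to -0.45, -0.44 and -0.53 with 1 spread.

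In 2 cases the bound window was remote from the start. Zfp593 measured 1.36 ± 0.49 in WT, 1.55 in Eed-KO and 2.98 in Dnmt1-KO at chr4:133522302-133523164, centred at -5085 bp from its start, whereas its probes within 500 bp of the start averaged 0.17, 0.21 and 1.03. Zfp319 measured 1.32 ± 0.49, 1.42 and 2.70 at chr8:98217368-98218239, centred 3333 bp inside, whereas its start probes averaged 0.03, -0.13 and 1.00. The WT call of these genes therefore belongs to a distal window and not to the start. Over the 213 Zfp promoters with probes near the start, the start level was at least 1 in 4 in WT (1.88%, all promoters 2.24%), in 2 in Eed-KO (0.94%, all promoters 2.18%) and in 85 in Dnmt1-KO (39.9%, all promoters 41.7%).

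The bound level cut through a continuous series. Just inside it in WT lay Zfp469 (1.19), Zfp770 (1.08), Zfp438 (1.08) and Zfp422 (1.01). Just outside lay Zfp612 (0.98), Zfp334 (0.96), Zfp287 (0.95) and Zfp286 (0.94), and the SD over probes of these 4 windows was 0.27 to 0.47, larger than their distance from the cut. At the other end, the lowest WT levels were those of Zfp458 (-0.33), Zfp563 (-0.28), Zfp51 (-0.26), Zfp235 (-0.25), Zfp46 (-0.21) and Zfp31 (-0.20). No Zfp promoter reached -1 in any genotype, which the choice of each gene's highest window makes unlikely. Over all 16329 promoters 0 did in WT, 1 in Eed-KO and 27 in Dnmt1-KO.

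The Eed-KO levels were set beside those of WT, as Eed belongs to Polycomb repressive complex 2. How far Rybp binding depends on that complex was not tested, with 1 array per promoter and genotype. No Zfp promoter bound in either genotype differed by 1 or more: 0 were higher, where 0.00612% of all promoters were, and 0 were lower, where 0% of all promoters were. At a smaller difference of at least 0.5, 2 Zfp promoters were lower (0.141% of all promoters) and 0 were higher (0.306% of all promoters). Those 2 were Zfp770 and Zfp422, and the count depends on the processing. With normexp background correction the 2 differences were -0.49 and -0.35, so neither reached 0.5 in size. Without the trend on probe GC content they were -0.64 and -0.42, and with 1 spread -0.91 and -0.73. The whole family lay slightly lower in Eed-KO, with a median difference of -0.09 against -0.04 for all promoters as measured, -0.12 against -0.08 with 1 spread and -0.05 against -0.01 with the trend on probe GC content removed. The difference was above 0 at 67 of 223 Zfp promoters, or 30.0%, against 40.7% of all promoters. All 6 probes were lower at 28 Zfp promoters (12.6%, all promoters 8.05%) and all 6 were higher at 3 (1.35%, all promoters 3.79%).

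**Figure D2:**
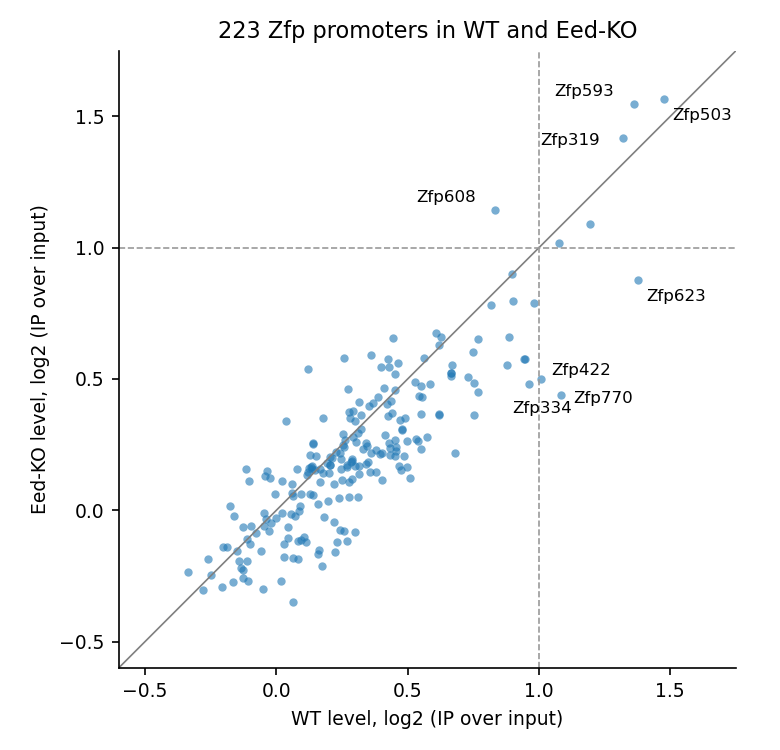
WT level (x axis) against Eed-KO level (y axis) of 223 Zfp promoters, both as centred log2 ratios of IP over input; the solid line marks equal levels and the dashed lines the bound level of 1. Zfp503, Zfp593 and Zfp319 lie near the line at the top right, while Zfp770, Zfp422, Zfp623 and Zfp334 lie below it.

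Zfp770 had the lowest difference. Its probes averaged 1.08 ± 0.56 (SD) in WT, 0.44 in Eed-KO and 2.10 in Dnmt1-KO, and the Eed-KO minus WT difference was -0.65 ± 0.12 (SE), with all 6 probes lower. The IP signal was 0.55 lower in Eed-KO and the input signal 0.09 higher, so the ratio differed mainly through the IP channel. The 250 bases before its start in RefSeq (GRCm38.p6, chr2:114201433-114201682, minus strand) are printed because 1 window probe, 133 bp upstream of the start, lies within them; capitals mark that probe, at bases 91 to 145, where the levels were 1.18 in WT, 0.62 in Eed-KO and 2.17 in Dnmt1-KO.
Zfp770 promoter: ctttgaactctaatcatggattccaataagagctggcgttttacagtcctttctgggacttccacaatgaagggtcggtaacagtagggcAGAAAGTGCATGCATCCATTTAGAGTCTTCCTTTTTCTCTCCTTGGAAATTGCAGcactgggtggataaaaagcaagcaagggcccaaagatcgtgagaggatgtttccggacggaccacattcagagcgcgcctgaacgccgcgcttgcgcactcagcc
The stretch holds 11 CG dinucleotides, none of them in the capitals of the probe.

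Zfp422 measured 1.01 ± 0.33 in WT, 0.50 in Eed-KO and 1.80 in Dnmt1-KO, with an Eed-KO difference of -0.51 ± 0.09. Here the input signal was 0.37 higher in Eed-KO and the IP signal 0.14 lower, so the ratio differed mainly through the input channel. Zfp623 differed by -0.50 ± 0.11, with the IP signal 0.36 lower and the input 0.13 higher. Among unbound promoters Zfp334 (0.96 in WT, 0.48 in Eed-KO) and Zfp365 (0.68 and 0.22) differed by -0.48 and -0.46, and their input signal was 0.26 and 0.36 higher in Eed-KO. In the other direction, Zfp608 was the one promoter bound in Eed-KO and not in WT. Its levels were 0.83 in WT, 1.14 in Eed-KO and 1.36 in Dnmt1-KO, with all 6 probes higher in Eed-KO by 0.31 ± 0.09 on average, an input signal 0.24 lower and an IP signal 0.07 higher. That window lay upstream, and over the start probes of Zfp608 Eed-KO was the lower of the pair, at 0.37 against 0.52 in WT. The Dnmt1-KO minus WT differences of Zfp770, Zfp422 and Zfp608 were 1.01, 0.80 and 0.53 as measured and -0.24, -0.31 and -0.28 with 1 spread. Of the 9 Zfp promoters bound in WT or Eed-KO, 5 were bound in both, where 645 of 1136 were over all promoters. Over the 223 promoters the Eed-KO difference correlated with the input difference at r = -0.40 and with the IP difference at r = 0.56, values that share a channel by construction and describe these arrays only.

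The Dnmt1-KO comparison uses the same WT arrays. As measured, 204 of 223 Zfp promoters (91.5%) had a higher level in Dnmt1-KO than in WT, against 83.9% of all promoters, and with 1 spread 151 (67.7%) did, against 65.4%. The median difference was 0.63 (all promoters 0.61) as measured, 0.14 (0.13) with 1 spread and 0.45 (0.39) without the GC trend. The choice of windows, in which the Dnmt1-KO arrays weigh most, raises these differences. With windows picked on the WT and Eed-KO arrays alone, the median difference as measured was 0.425 (all promoters 0.330). In those windows 81 Zfp promoters were bound in Dnmt1-KO (36.3%, all promoters 35.2%). Bound Zfp promoters higher by at least 1 numbered 47 of 223, where 24.9% of all promoters were, and 1 with 1 spread. As measured 0 were lower by at least 1, where 0.0184% of all promoters were, and with 1 spread 1 was, Zfp503. No share of all promoters is given for these counts with 1 spread. Of the 47, 42 kept a difference above 0 with 1 spread. The 47 were picked for a large difference in windows weighted towards the Dnmt1-KO arrays, so this count is no independent support. The input signal of the Zfp windows was itself 1.22 higher in Dnmt1-KO than in WT relative to each array's median probe, against 1.20 over all promoters, and the IP signal 1.82 higher, against 1.86. What the input shift and the wider scale contribute was not tested.

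**Figure D3:**
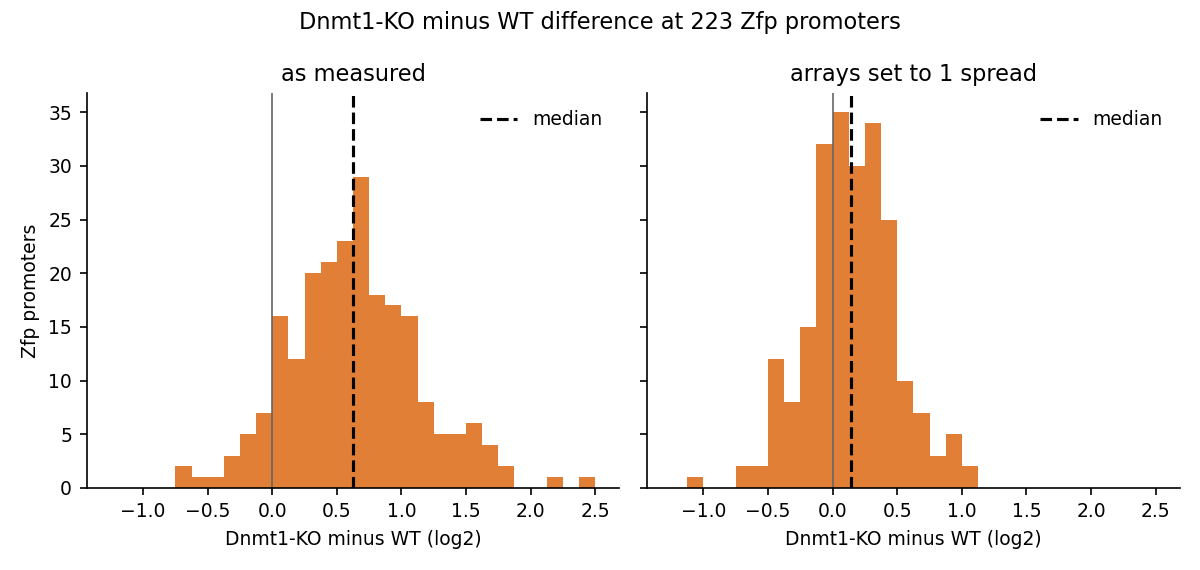
Number of Zfp promoters (y axis) by Dnmt1-KO minus WT difference in log2 units (x axis), as measured (left) and with the arrays of a design set to 1 spread (right); the dashed line marks the median, 0.63 on the left and 0.14 on the right, and the solid line marks 0.

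The largest difference was at Zfp36, whose product binds AU-rich elements and speeds the decay of cytokine mRNAs. Its levels were 0.43 in WT, 0.57 in Eed-KO and 2.82 in Dnmt1-KO, a difference of 2.40 ± 0.38 (SE) as measured and 1.07 with 1 spread, with every probe higher. At a window picked on the WT and Eed-KO arrays alone the difference as measured was 1.49. The 250 bases before its start in RefSeq (GRCm38.p6, chr7:28379229-28379478, minus strand) are shown because a window probe, in capitals at bases 70 to 114, measured 0.33 in WT, 0.03 in Eed-KO and 3.02 in Dnmt1-KO.
Zfp36 promoter: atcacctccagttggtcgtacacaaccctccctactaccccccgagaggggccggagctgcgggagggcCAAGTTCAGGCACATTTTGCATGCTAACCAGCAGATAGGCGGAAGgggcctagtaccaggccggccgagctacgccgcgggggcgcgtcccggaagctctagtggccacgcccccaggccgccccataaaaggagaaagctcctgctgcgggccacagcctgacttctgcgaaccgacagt
It holds 18 CG dinucleotides, against 11 in the Zfp770 stretch.

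Next came Zfp238, now Zbtb18, a transcriptional repressor needed for the development of the cortex, with 0.54 in WT and 2.77 in Dnmt1-KO. Its difference of 2.23 ± 0.51 became 0.89 with 1 spread, at a window centred 2256 bp inside the gene, whereas over its start probes Dnmt1-KO was lower than WT by 0.14. Zfp161, now Zbtb14, differed by 1.83 ± 0.35 (0.91 with 1 spread), Zfp37 by 1.79 ± 0.17 (0.77), Zfp521 by 1.72 ± 0.30 (0.50) and Zfp289 by 1.69 ± 0.27 (0.90). All 5 were unbound in WT and Eed-KO. These windows were picked largely through the Dnmt1-KO arrays. With windows picked on the other arrays, the difference was 0.22 at Zfp238, 0.44 at Zfp521 and 0.93 at Zfp161, while Zfp37 and Zfp289 kept their windows and values. Zfp593 and Zfp319, bound in every genotype, had Dnmt1-KO levels of 2.98 and 2.70, and their differences of 1.62 and 1.38 became -0.10 and -0.20 with 1 spread. Zfp promoters bound in Dnmt1-KO as measured had a median of 3.57 CpG per 100 bases and the rest 2.24. This is not particular to the family, as the shares for other promoters given below show.

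CpG density was described in 3 classes of equal size over all promoters. In the CpG-richest class 5 of 77 Zfp promoters were bound in WT (6.49%, other promoters 7.67%), in the middle class 2 of 101 (1.98%, other promoters 6.76%) and in the CpG-poorest class 1 of 45 (2.22%, other promoters 1.10%). The median WT level was 0.41, 0.26 and 0.03 in that order, against 0.43, 0.32 and 0.01 for other promoters. The family held more CpG than all promoters, with a median of 2.82 per 100 bases against 2.48. In WT the gap in bound share was widest in the middle class. In Dnmt1-KO as measured 70.1%, 36.6% and 28.9% of Zfp promoters were bound, from the CpG-richest to the CpG-poorest class. The shares of other promoters were 74.7%, 49.4% and 14.1%, a steeper fall. The median Eed-KO difference of Zfp promoters was below that of other promoters in each class, at -0.13 against -0.09, -0.07 against -0.03 and -0.02 against 0.00. Across the 223 promoters WT level and CpG density correlated at r = 0.39 (0.45 over all promoters), a description over promoters that share arrays and probe base composition.

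**Figure D4:**
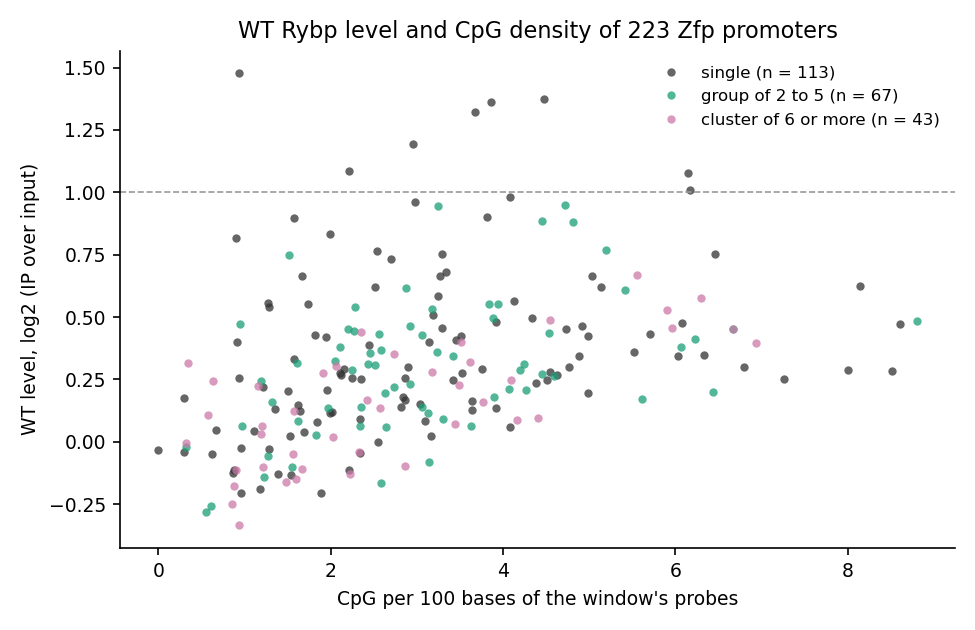
WT level in log2 units (y axis) against CpG per 100 bases of the window's probes (x axis) for 223 Zfp promoters, coloured by genomic arrangement; the dashed line is the bound level. The 8 points above the line are all single genes, and Zfp503 lies at the top left at 0.94 CpG per 100 bases.

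The family also divides by genomic arrangement. Zfp promoters at most 200 kb from a neighbouring Zfp window were joined, which gave 5 clusters of 6 or more (43 promoters), 67 promoters in groups of 2 to 5 and 113 single ones. All 8 Zfp promoters bound in WT and all 6 bound in Eed-KO were single. Of the 110 clustered or grouped promoters 0 were bound in either, where 5.15% (WT) and 5.76% (Eed-KO) of all promoters were. Zfp287 and Zfp286, at 0.95 and 0.94 in WT just under the bound level, form a group of 2. At a bound level of 1.5-fold, 25 single and 9 clustered or grouped promoters passed in WT, where 20.6% of all promoters did. At 2-fold with 1 spread 17 and 6 passed, where 12.8% of all promoters did. The absence therefore holds for the levels as measured at 2-fold and not under these settings. The median WT level was 0.13 in the clusters, 0.31 in the groups and 0.29 in single genes. In Dnmt1-KO 12 of 43, 33 of 67 and 59 of 113 were bound, or 27.9%, 49.3% and 52.2%, against 46.1% of all promoters. With 1 spread 7 clustered or grouped promoters (6.36%) and 20 single ones (17.7%) were, against 18.1% of all promoters.

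The clusters differed among themselves. On chromosome 13 the 8 promoters from Zfp708 to Zfp748 (window range 67579411 to 68052666) had a median WT level of -0.12 and Eed-KO level of -0.13, and even in Dnmt1-KO the median was 0.25, the highest value was 0.46 and 0 were bound. Zfp458 was lowest (-0.33 in WT) and Zfp87 highest (0.13). Their median CpG density was 1.53 per 100 bases and their median input signal in Dnmt1-KO was 0.43 lower than in WT. The family's median shift was 1.22 in the opposite direction, and the cluster medians on chromosome 7 were 0.50 to 1.87 higher. Lower input is not particular to the chromosome 13 cluster, as single windows elsewhere had shifts of -1.10 (Zfp235), -0.74 (Zfp260) and -1.27 (Zfp35). Of the 4 chromosome 7 clusters, the 7 promoters from Zfp553 to Zfp629 stood highest, with a median of 0.45 in WT, 0.24 in Eed-KO and 1.39 in Dnmt1-KO, 5 bound in Dnmt1-KO and 5.90 CpG per 100 bases. Within it Zfp553 was highest in WT (0.58) and Zfp689 lowest (0.16). The bound counts of these 2 clusters in Dnmt1-KO stand beside 46.1% of all promoters.

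**Figure D5:**
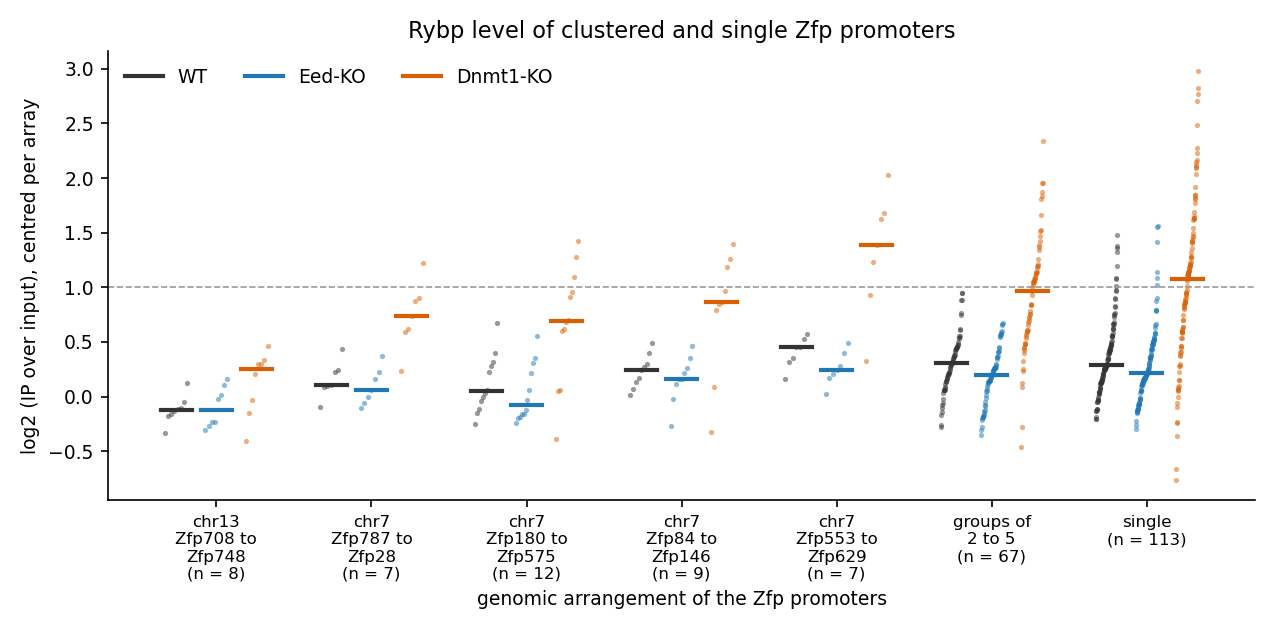
Levels in log2 units (y axis) of Zfp promoters in the 5 clusters of 6 or more, in groups of 2 to 5 and of single genes (x axis), with 1 point per promoter and a bar at the median of each genotype; the dashed line is the bound level. The chromosome 13 cluster lies below the bound level in every genotype.

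The cluster around Zfp235 on chromosome 7 had the widest range. Its 12 promoters, from Zfp180 to Zfp575, ran from -0.25 at Zfp235 to 0.67 at Zfp94 in WT, with a median of 0.05, and 3 were bound in Dnmt1-KO. The cluster from Zfp787 to Zfp28 ran from -0.10 at Zfp583 to 0.44 at Zfp28 with 1 of 7 bound in Dnmt1-KO, and that from Zfp84 to Zfp146 from 0.02 at Zfp260 to 0.49 at Zfp146 with 3 of 9 bound there. Over all promoters 46.1% were bound in Dnmt1-KO. WT levels in these 3 clusters thus overlapped. With 1 spread the median Dnmt1-KO difference stayed above 0 in all 5 clusters, between 0.12 and 0.24.

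By role, the promoters of developmental regulators had the highest median WT level of the Zfp lists with more than 1 member, although their levels ranged widely. Of 13 measured, 2 were bound in WT (Zfp503 and Zfp469), 3 in Eed-KO (with Zfp608) and 9 in Dnmt1-KO, and their median WT level was 0.55 against 0.28 for the family. Zfp469 counts here by its older symbol alone. Without it 1 of 12 was bound in WT, 2 in Eed-KO and 8 in Dnmt1-KO, where 5.15%, 5.76% and 46.1% of all promoters were, and the median WT level was 0.55. Zfp536, a repressor of neuronal differentiation, measured 0.90 in WT, 0.90 in Eed-KO and 1.63 in Dnmt1-KO. Zfp467 measured 0.88, 0.55 and 1.96, and Zfp521, a regulator of blood and neural progenitors, 0.77, 0.65 and 2.48. Zfp385 measured 0.28, 0.11 and 1.11. Those 4 stayed under the bound level in WT and Eed-KO. Other members of the list lay below the family median in WT, with Zfp750 at -0.05, Zfp366 at -0.04, Zfp609 at -0.03 and Zfp488 at 0.18. The Dnmt1-KO difference of the list had a median of 0.65 as measured and -0.045 with 1 spread, and 0.63 and 0.016 without Zfp469.

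Regulators of the ES cell state were not bound in WT or Eed-KO, and 6 of 10 were bound in Dnmt1-KO, where 46.1% of all promoters were. With 5.15% and 5.76% of all promoters bound in WT and Eed-KO, these counts are near the background. Zfp281, a regulator of the exit from pluripotency, measured 0.40 in WT, 0.22 in Eed-KO and 1.41 in Dnmt1-KO. Zfp143, a promoter-binding activator, measured 0.50, 0.17 and 1.54, and Zfp296 0.40, 0.55 and 2.03. Zfp706 measured 0.43, 0.24 and 1.92, Zfp148 measured 0.45, 0.52 and 1.01, and Zfp57 is given below. The list's median Dnmt1-KO difference was 0.73 as measured and 0.24 with 1 spread, both above those of the family (0.63 and 0.14).

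Of 4 KRAB genes with known roles at imprinted loci or retroelements, 0 were bound in WT or Eed-KO and 2 in Dnmt1-KO, against 5.15%, 5.76% and 46.1% of all promoters, which again is near the background. Zfp57, which keeps DNA methylation at imprinted loci, measured 0.42 in WT, 0.40 in Eed-KO and 1.23 in Dnmt1-KO, and Zfp445, which acts at imprinted loci as well, 0.36, 0.14 and 1.03. Zfp809, which silences retroviruses, measured 0.09, 0.02 and 0.44, and Zfp708 in the chromosome 13 cluster -0.13, -0.23 and 0.46. With 1 spread the Dnmt1-KO differences of these 4 were 0.19, 0.15, 0.14 and 0.46. Of 8 genes named for testis or germ line expression, 0 were bound in WT or Eed-KO and 4 in Dnmt1-KO, near the same background shares. Those 4 were Zfp35 (0.75 in WT, 1.05 in Dnmt1-KO), in a window shared with C230097I24Rik, Zfp105 (0.55, 1.14), Zfp318 (0.27, 1.15) and Zfp37 (0.36, 2.15). The median Dnmt1-KO difference of the 8 was 0.51 as measured and 0.15 with 1 spread.

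The partners through which KRAB proteins act were measured on the same arrays. Of 16 measured, 3 were bound in WT and the same 3 in Eed-KO, where 5.15% and 5.76% of all promoters were. Trim28, the corepressor that KRAB domains bind, measured 1.27 in WT, 1.10 in Eed-KO and 1.82 in Dnmt1-KO. Hdac2, a histone deacetylase, measured 1.84, 1.83 and 2.73, and Morc3, an ATPase that acts in retroelement silencing, 1.13, 1.00 and 1.06. In these 3 the Dnmt1-KO difference was -0.65, -0.79 and -0.87 with 1 spread. Dnmt3b, a de novo DNA methyltransferase, lay just below at 0.91, 0.96 and 1.59. In Dnmt1-KO 12 of the 16 were bound, against 46.1% of all promoters, among them Atf7ip (2.04), Cbx3 (1.91), Chd4 (1.86), Cbx1 (1.50), Hdac1 (1.34), Uhrf1 (1.28), Daxx (1.21) and Atrx (1.07), none of them bound in WT. The median WT level of the 16 was 0.40, against 0.28 for the Zfp promoters, a difference that was not tested. Their median Dnmt1-KO difference was 0.82 as measured and 0.17 with 1 spread.

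Sequence motifs were counted in the RefSeq promoters, which hold 250 bases before and 50 after the start, for the 174 Zfp genes matched, with 223 entries. CACGTG, the E-box of the Max and Mga proteins, was in 9 entries (4.04%), against 7.15% of all entries. GCGGGA, searched on both strands and known as an E2F6-type site, was in 74 (33.2%), against 20.0% of all entries. The median number of CG dinucleotides was 17 in Zfp entries and 7 over all entries, and the part that CG content plays in the second share was not tested. Among the 5 entries of Zfp genes bound in WT, 0 held CACGTG and 2 held GCGGGA, namely those of Zfp503 and Zfp469. A match describes letters only.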

How the data were processed

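The 6 arrays were 2-colour Agilent promoter arrays. Per the file headers, the deposited intensities are background-subtracted and dye-normalised processed signals from Agilent Feature Extraction, version 9.5.3.1 in the WT and Eed-KO files and 10.1.1.1 in the Dnmt1-KO files. The authors' deposited value table gives Cy5 over Cy3 as log10 and served as an alternative. On each array at least 99.0% of its values equalled the scanner log ratio plus 1 constant, within 0.001, which settles scale and direction but not how the centring was set, and the column medians were -0.025, -0.0317 and -0.121 on array 1 and -0.027, -0.0316 and -0.114 on array 2 (WT, Eed-KO, Dnmt1-KO). From the deposited signals, log2 of red over green was taken and centred on each array's median, with no loess or quantile step, as many probes may carry signal. Of 474380 probes, 333 with an outlier flag were left out. The window of a gene was the run of 6 of its probes, no longer than 3 kb, that was highest on average across genotypes, so the Dnmt1-KO arrays weigh most in its choice. Its median length was 1042 bp, and 48 of 223 windows lay over 1 kb from the start. Setting to 1 spread means that the arrays of a design were given the same median absolute deviation. Symbols were updated through RefSeq accessions, which matched 223 of the 226 genes.

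The members, the gene lists and the rules were chosen with earlier results of these data known. Genes named are the 12 highest and 6 lowest WT levels, 4 on each side of the bound level, per knockout up to 6 highest and 6 lowest differences among bound promoters with all 6 probes in 1 direction, list members bound in any genotype, and the extremes of each cluster. Other genes in the text (Zfp365, Zfp654, Zfp809, Zfp708, Zfp366, Zfp609 and Zfp488) were added after their values were seen. Protein sequences were not analysed here. Software was Python 3.11.15, numpy 2.4.6, pandas 2.3.3, statsmodels 0.14.6, R 4.3.3 and limma 3.58.1. The window step was run on simulated data with independent noise and known steps added on the WT arrays. That run checks the code and not the bound calls reported here. The alternatives were normexp correction (offset 50), the value table, scaling, removal of the GC trend, other windows, other bound levels, other probe filters and each array alone; 3 more, and the developmental list without Zfp469, were added after seeing the data.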

Additional observations from a re-analysis of the deposited data

How the results depend on the processing

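Each Zfp result was recomputed under 16 alternative settings and 3 chosen after seeing the data. The share of Zfp promoters bound in WT and in Eed-KO lay below that of all promoters in each of 18 alternatives with a value for all promoters, and the share bound in Dnmt1-KO in 10. The median Eed-KO difference lay below in each of the 16 that can move it. All settings reprocess the same arrays, so these counts are no independent support. The size of the gap in WT varied. It was small with runs of 4 probes (7.17%, all promoters 7.37%) and over all probes of a gene (0%, all promoters 0.0967%). At 1.5-fold it was wider (15.2%, all promoters 20.6%). The number of arrays limits the precision, and the causes of the changes below were not tested. No paired analysis was possible because each group holds 1 array per promoter and no test was run.

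Zfp promoters bound in WT numbered 5 with normexp, 23 with 1 spread (23 with the windows kept), 18 with 1 spread and no GC trend, 4 over probes within 500 bp of the start, 16 with runs of 4 probes, 0 over all probes of a gene, 34 at 1.5-fold, 0 at 3-fold, 5 and 3 on array 1 and array 2 alone, and 5 in windows within 1 kb of the start. In Eed-KO the counts were 3 with normexp, 10 with 1 spread (10 with the windows kept), 2 near the start, 0 over all probes, 19 at 1.5-fold, 0 at 3-fold, 3 and 3 on each array, and 2 within 1 kb. In Dnmt1-KO they were 26 with 1 spread (11.7%, all promoters 16.5%) and 27 with the windows kept (12.1%, all 18.1%). Without the GC trend 56 were bound (25.1%, all 30.3%), and 53 with the windows kept (23.8%, all 28.4%). With both corrections 13 were (5.83%, all 9.06%), and 4 over all probes (1.79%, all 3.03%). At 1.5-fold 163 were (73.1%, all 65.5%) and at 3-fold 35 (15.7%, all 20.7%). Array 1 and array 2 alone gave 66 (54.1%, all 47.4%) and 38 (37.6%, all 44.7%). Over all probes of a gene the median level turned to -0.019 in WT and -0.051 in Eed-KO and was 0.10 in Dnmt1-KO, where it was 0.39 with both corrections.

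Zfp promoters higher in Dnmt1-KO numbered 0 with 1 spread (1 with the windows kept), 21 without the GC trend (20), 1 with both, 25 where windows were picked on the WT and Eed-KO arrays, 0 over all probes, 29 at a bound level of 3-fold and 10 on array 2 alone. Those lower numbered 1 with 1 spread (1 with the windows kept) and 1 with both. No share over all promoters is given for these higher and lower counts, so they describe the Zfp promoters alone. The median Dnmt1-KO difference was 0.11 with 1 spread (0.14 with the windows kept), 0.074 with both and 0.12 over all probes. The Zfp238 difference turned to -0.14 near the start. The Zfp37 difference was 1.23 with normexp and 1.43 with dim input probes left out, against 1.79 in the main setting.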

Other observations

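At Zfp654 the input signal in Dnmt1-KO was 3.11 lower than in WT on the log2 scale, relative to each array's median probe. Its level was -0.03 in WT, 0.15 in Eed-KO and -0.76 in Dnmt1-KO, the lowest Dnmt1-KO level among the Zfp promoters. Zfp750, a regulator of epidermal differentiation, lay at -0.05 in WT, -0.06 in Eed-KO and 1.62 in Dnmt1-KO, a difference of 1.67 that was still 1.06 with 1 spread.

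Of the related families named by other zinc finger symbols, 29 Zbtb promoters had a median WT level of 0.40. Of these 1 was bound in WT (3.45%, all promoters 5.15%), 1 in Eed-KO (3.45%, all 5.76%) and 17 in Dnmt1-KO (58.6%, all 46.1%). Their median Eed-KO difference was 0.02 as measured and -0.0028 with 1 spread. Of 3 Zscan and 2 Zkscan promoters, 0 were bound in WT and Eed-KO, which is near the same shares of all promoters.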
